A study of Mus musculus with 12 samples.

Results

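The genes described here import cystine, make cysteine from methionine, and make, recycle or break down glutathione. They were chosen by name as 9 entries (Slc7a11, Cbs, Cth, Gclc, Gclm, Gss, Gsr, Chac1 and Chac2), and all 9 were found among the 19439 gene entries of the deposited table. The libraries came from 3T3 mouse embryonic fibroblasts, cells immortalised by serial passage, of 2 lines, 1 with wild-type p53 (WT) and 1 labelled p53 -/- (p53-null). Both lines were grown in DMEM with 25 mM glucose, and each was then kept for 18 h in that medium with 2 mM L-glutamine (complete) or with no L-glutamine (glutamine-free). There were 12 libraries, 3 for each of these 4 groups, and the series title names p53 and adaptation to glutamine loss as the subject. No allele or clone is described for the p53-null line, and with 1 line per genotype the effect of p53 and other differences between the lines cannot be told apart. Values are read numbers divided by gene length and by the mapped total (RPKM), given per library or as mean ± SD (n = 3).

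Glutathione is a tripeptide of glutamate, cysteine and glycine, and the main small thiol that keeps cells reduced. Cells in culture obtain cysteine mostly as cystine, imported in exchange for glutamate by system xc-, whose transport subunit is encoded by Slc7a11. Transsulfuration makes cysteine from the methionine product homocysteine in a step by cystathionine beta-synthase (Cbs) and a step by cystathionine gamma-lyase (Cth). Glutamate-cysteine ligase, a pair of a catalytic subunit (Gclc) and a modifier subunit (Gclm), and then glutathione synthetase (Gss) build the tripeptide. Glutathione reductase (Gsr) restores it from its oxidised form, and the gamma-glutamylcyclotransferases Chac1 and Chac2 cleave it inside the cell. Slc7a11, Chac1 and Cth are known targets of ATF4, the transcription factor made when amino acids run short, and Slc7a11, Gclc, Gclm and Gsr are known targets of NRF2, which responds to oxidants. Repression of Slc7a11 by p53 has also been described in other cells.

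All 9 are annotated as protein-coding by GENCODE M21, whose GRCm38 coordinates (mm10) are given here. Slc7a11 lies on the minus strand of chromosome 3 at 49892526 to 50443614, Cth on the same strand of that chromosome at 157894248 to 157925077, and Gclm on its plus strand at 122245557 to 122270732. Chac1 (plus strand, 119351229 to 119354381) and Gss (minus strand, 155563181 to 155592810) lie on chromosome 2. Gclc is on chromosome 9 at 77754535 to 77794485 (plus strand), Gsr on chromosome 8 at 33652523 to 33698163 (plus strand), Chac2 on chromosome 11 at 30976707 to 30986350 (minus strand) and Cbs on chromosome 17 at 31608894 to 31637238 (minus strand). In Gss, the overlaps with genes on the other strand (Acss2, Gssos1 and Gssos2) add up to 18.6% of the exon length. A base under more than 1 of these genes is counted for each. In Gclm, 4.71% of the exon length lies under a gene on the other strand. The library kit does not mark strand, so reads of Gss and Gclm and those of their antisense partners cannot be told apart. Another 3.88% of the Gclm exon length is shared with Gm6061 on its own strand. The other 7 have no exon sequence under another gene.

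RefSeq promoter windows (GRCm38.p6, 250 bases before to 50 after the start) were matched for 6 of the 9 genes, Slc7a11, Cbs, Gclm, Gss, Chac1 and Chac2. They were searched on both strands for the core of the amino acid response element, TGATGNAA, which ATF4 dimers are known to bind, and for the core of the antioxidant response element, TGACNNNGC, which NRF2 is known to bind. The first core was present in 2 of the 6 windows, those of Slc7a11 and Chac1, against 3.97% of all 32851 windows in the table. Slc7a11 held 2 copies, in opposite orientations, which 0.070% of all windows equalled or exceeded. The second core was present in 1 of the 6, that of Gclm, against 12.4% of all windows. No match of either core overlapped another. No window was matched for Cth, Gclc or Gsr, which rose 11.2-fold, 4.14-fold and 1.52-fold in WT on glutamine withdrawal. Whether either core goes with the response to withdrawal was therefore not tested. The stretches that hold the matches come from the windows of Slc7a11, Chac1 and Gclm. Each is 100 bases, 5′ to 3′ on the strand of the gene, with the matches in capitals, at chr3:50443624-50443723 (minus strand), chr2:119351002-119351101 (plus strand) and chr3:122245377-122245476 (plus strand).
Slc7a11: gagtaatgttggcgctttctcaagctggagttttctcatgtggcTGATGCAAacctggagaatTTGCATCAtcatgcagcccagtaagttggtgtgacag
Chac1: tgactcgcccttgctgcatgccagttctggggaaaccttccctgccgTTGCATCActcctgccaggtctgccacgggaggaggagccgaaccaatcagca
Gclm: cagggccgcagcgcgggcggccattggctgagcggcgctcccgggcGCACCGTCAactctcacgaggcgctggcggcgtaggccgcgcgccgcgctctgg

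**Figure D1:**
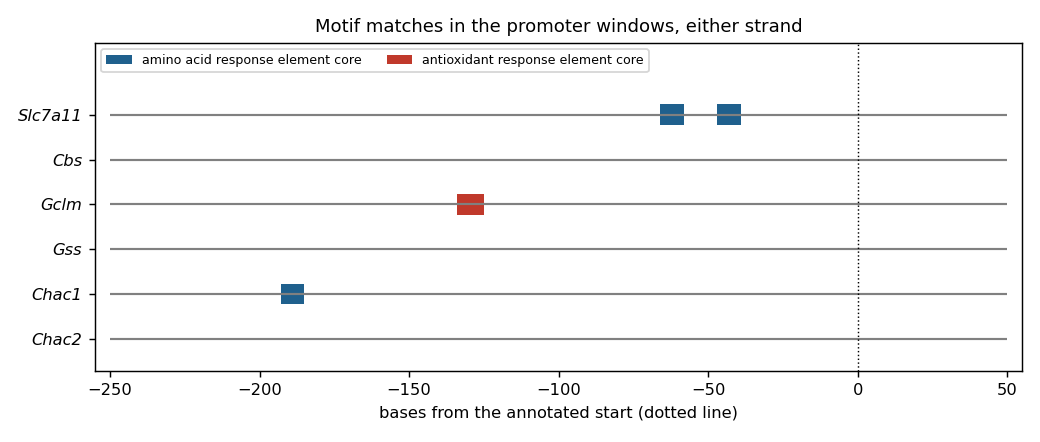
Matches of the amino acid response element core (blue) and the antioxidant response element core (red) in the 6 matched promoter windows, by distance in bases from the annotated start. Slc7a11 has matches at -66 to -59 and -47 to -40, Chac1 at -193 to -186 and Gclm at -134 to -126, and the other 3 windows have none.

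Counted from the start, the matches begin at -66 and -47 in Slc7a11, at -193 in Chac1 and at -134 in Gclm. A match of letters is a description and does not show that a factor binds there.

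The sum of RPKM was 284426 to 319735 per library, and read totals were not given, so precision is taken from the spread of the 3 libraries of a group. Separate cultures are not stated in the labels. The p-values then rest on the spread between these libraries alone, which may be technical. Trp53, the gene that encodes p53, was 57.8 to 59.0 RPKM in WT complete and 109.4 to 113.9 RPKM in WT glutamine-free libraries. In p53-null libraries it was 27.9 to 29.6 RPKM with and 34.0 to 35.2 RPKM without glutamine, and RPKM does not tell which exons these reads came from. Of 10 fibroblast markers 9 averaged at least 1 RPKM in every group, and Thy1 stayed at or under 0.339 ± 0.00921 RPKM. The summed level of that list was 4125.3 to 4145.0 RPKM in WT complete, 1028.0 to 1035.5 in WT glutamine-free, 2502.6 to 2540.2 in p53-null complete and 1432.1 to 1457.7 in p53-null glutamine-free libraries. Vim held most of the p53-null sums, at 1730 ± 10.3 RPKM in complete medium against 760 ± 5.62 in WT. The other 8 tested markers were lower in p53-null cells there, beside 42.5% of all tested genes. The median log2 difference over the list was -1.72, and S100a4, for example, was 19.3 ± 1.74 against 944.6 ± 14.1 RPKM. In glutamine-free medium 4 of the 9 were higher in p53-null cells and 5 lower, with a median log2 difference of -0.59. Of all tested genes 51.4% were called higher there and 40.0% lower. With median centring 3 of the markers were higher and 5 lower. On withdrawal 9 of 9 fell in WT, beside 44.0% of all tested genes. In p53-null cells 8 fell and 1, Fn1, rose, beside 32.0% and 50.0% of all tested genes. With libraries centred on their median Fn1 fell there too (log2 change -0.059, limma adjusted p = 5.01e-04). The 6 epithelial markers summed to at most 0.115 RPKM in WT and to 59.9 to 77.0 RPKM in p53-null libraries, nearly all of it Krt18, while Epcam averaged at most 0.00719 RPKM. The 5 blood cell markers found summed to 0.779 to 1.69 RPKM in WT and to 2.04 to 7.68 RPKM in p53-null libraries. Most of that was Cd68, which in complete medium was 1.23 ± 0.339 RPKM in WT and 7.06 ± 0.382 RPKM in p53-null libraries, while Ptprc averaged at most 0.00261 RPKM. The 5 endothelial markers summed to at most 0.148 RPKM in WT and to 1.24 to 1.58 RPKM in p53-null libraries, most of it Kdr, with Cdh5 at most at 0.00981 RPKM on average. The part of these marker differences in the results below was not tested. In bulk RNA, fewer cells of a kind and less RNA per cell cannot be told apart.

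After glutamine withdrawal from WT cells 6 of the 9 genes rose, Slc7a11, Cth, Gclc, Gclm, Gsr and Chac1, and 2 fell, Gss and Chac2. The cystine importer, the second transsulfuration enzyme and Chac1 each rose over 8-fold, and the catalytic ligase subunit 4.14-fold. Cbs, the first transsulfuration enzyme, was the only one of the 9 under the filter of 1 RPKM in at least 3 libraries, and it was not tested. The other 8 exceeded 1 RPKM in each of the 12 libraries. In the limma fit 90.1% of the 11461 tested genes were called (adjusted p under 0.05), 46.0% higher and 44.0% lower, and in 90.0% the libraries of the 2 media did not overlap. Being called therefore says little about these genes, and the size of the change says more. A called rise of at least 1 on the log2(RPKM + 1) scale was seen in 4 of them (Slc7a11, Cth, Gclc and Chac1), against 9.75% of the tested genes. The median log2 change of the 8 tested genes was 1.26, beside 0.01 for all tested genes. Since the genes were chosen with earlier results of these data known, such shares are given here and below as a description.

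In the p53-null line 4 of the 9 rose on withdrawal, Slc7a11, Cth, Gclc and Chac1, Gclm and Chac2 fell, and Gss and Gsr did not pass. Here 82.0% of tested genes were called, 50.0% higher and 32.0% lower, and in 84.0% the media did not overlap. Of the called genes 61.0% were higher, and that share became 47.6% when libraries were centred on their median. Such centring moved the median of all genes by -0.11 in this comparison, by -0.14 in the comparison of the lines in glutamine-free medium and by 0.10 in the difference of the responses. Rescaling libraries to 1 sum moved it by 0.13 in the second of these. With the pseudocount of 1, Chac1 was the only one of the 9 with a called rise of at least 1 on the log2 scale, which 1.27% of tested genes reached. Slc7a11 was at 0.95, and at 1.14 with a pseudocount of 0.1. The median log2 change was 0.16, beside 0.08 for all tested genes. It was 0.028 under quantile normalization, with 4 higher and 4 lower, and 0.056 under median centring, with 4 higher and 3 lower.

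The difference of the responses, WT minus p53-null, was called for the 8 tested genes, with 84.9% of all tested genes called. It was positive for 7, beside 38.4% of tested genes, and negative for Gss, beside 46.4%. For Chac2, which fell in both lines, the positive sign marks a smaller fall in WT (log2 change -0.44, against -0.79 in p53-null cells). Of all called genes 45.3% were positive, and 52.7% under quantile normalization or median centring, where 7 of the 8 again were. For 4 of them, Slc7a11, Cth, Gclc and Chac1, it was at least 1 on the log2 scale, against 5.58% of tested genes. The medium comparisons, the comparisons of the lines and this difference use the same 12 libraries and are not independent.

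**Figure D2:**
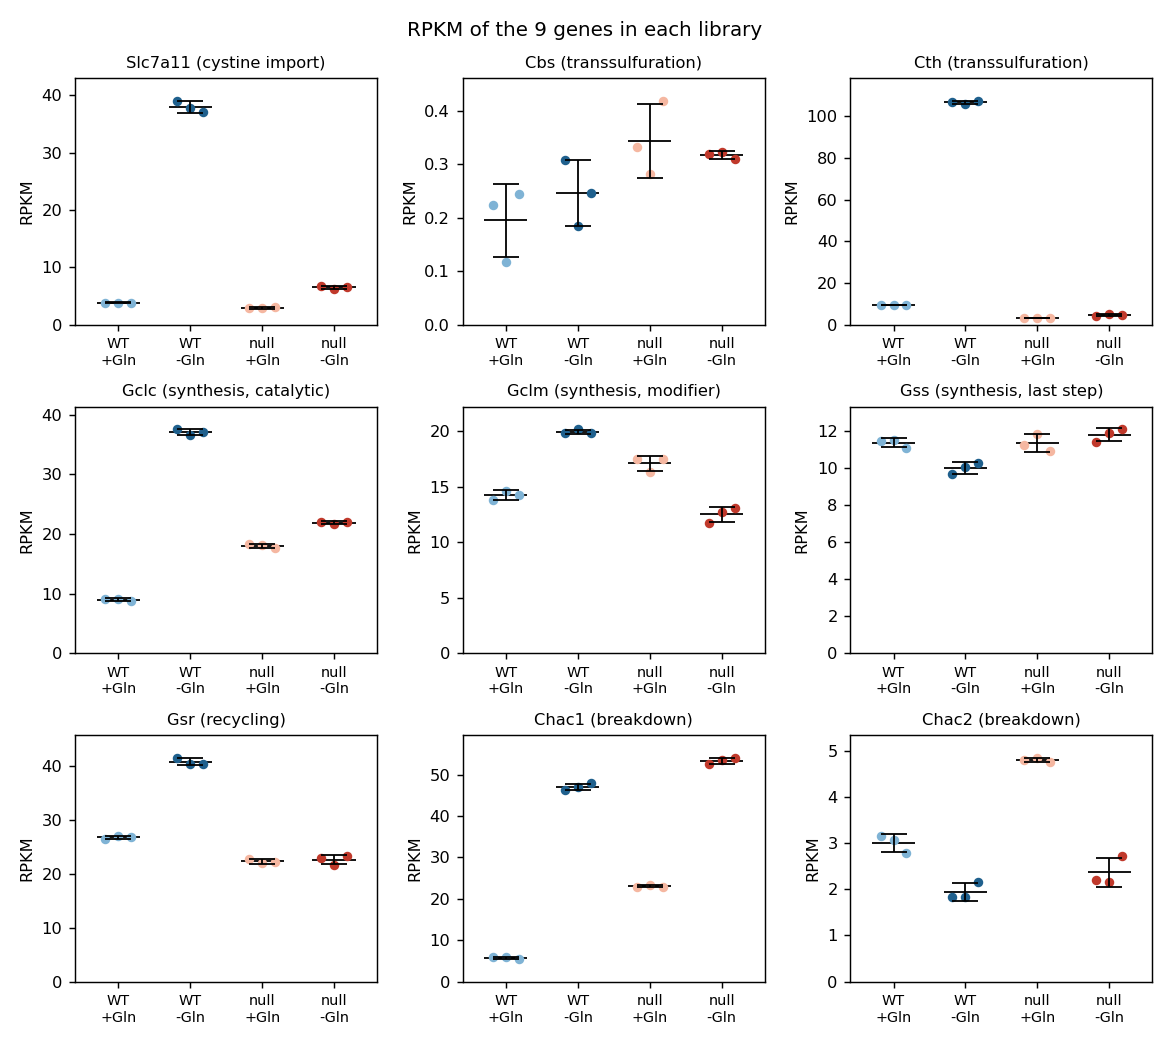
RPKM of the 9 genes in each of the 12 libraries (points), with the mean and SD of each group of 3 (black lines); +Gln is complete and -Gln glutamine-free medium, null is the p53-null line, and each panel has its own vertical axis from 0. Slc7a11 and Cth reach 37.0 to 39.0 and 105.7 to 107.3 RPKM in WT glutamine-free libraries and stay at or under 6.85 and 9.68 RPKM in the other 9.

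Slc7a11, the cystine importer, was 3.88, 3.74 and 3.87 RPKM in WT complete libraries and 39.0, 37.9 and 37.0 RPKM in WT glutamine-free ones. In the p53-null line it was 2.87, 2.87 and 3.03 RPKM with and 6.85, 6.31 and 6.56 RPKM without glutamine. The WT glutamine-free libraries stood apart from the other 9, and no pair of groups overlapped. In WT the mean rose 9.91-fold, a log2 change of 3.01 ± 0.032 (SE, limma adjusted p = 6.32e-17), rank 23 from the top among the 11461 genes. In p53-null cells it rose 2.25-fold, a log2 change of 0.95 ± 0.032 (adjusted p = 1.77e-11), rank 190. The responses differed by 2.06 ± 0.045 (adjusted p = 2.29e-13). The p53-null line held 0.763 times the WT level in complete medium, a log2 difference, p53-null minus WT, of -0.30 ± 0.032 (adjusted p = 8.99e-07). Without glutamine it held 0.173 times the WT level, a log2 difference of -2.36 ± 0.032 (adjusted p = 6.91e-16). The p53-null line was thus the lower of the 2 in either medium.

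Cth, which releases cysteine from cystathionine, had the largest WT rise of the 9 genes. It was 9.68, 9.31 and 9.52 RPKM in WT complete libraries and 106.7, 105.7 and 107.3 RPKM in WT glutamine-free ones, an 11.2-fold rise in the mean. Its log2 change of 3.36 ± 0.042 (adjusted p = 2.96e-16) had rank 16 from the top. In p53-null libraries it was 3.38, 3.41 and 3.46 RPKM with and 4.22, 5.09 and 4.61 RPKM without glutamine, a log2 change of 0.35 ± 0.042 (adjusted p = 4.79e-06), rank 2727. Both p53-null groups lay under the WT complete group without overlap. The difference of the responses, 3.01 ± 0.059 (adjusted p = 1.07e-13), had rank 14 of all tested genes. Between the lines, Cth was 2.78-fold higher in WT than in p53-null cells in complete medium and 22.9-fold higher in glutamine-free medium. The log2 differences, p53-null minus WT, were -1.25 ± 0.042 and -4.26 ± 0.042 (adjusted p = 5.04e-12 and 4.49e-17), and the latter had rank 20 from the bottom.

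Cbs, which forms the cystathionine that Cth cleaves, was low in each library. It averaged 0.195 ± 0.0686 RPKM in WT complete, 0.246 ± 0.0615 in WT glutamine-free, 0.344 ± 0.0692 in p53-null complete and 0.317 ± 0.00726 in p53-null glutamine-free cells. The media overlapped within each line. In the fit without the filter, its log2 change on withdrawal was 0.061 ± 0.050 in WT and -0.028 ± 0.050 in p53-null cells (adjusted p = 0.344 and 0.711), and in complete medium the p53-null line was higher by 0.17 ± 0.050 (adjusted p = 0.0121). At this level the log2(RPKM + 1) scale understates ratios. Cth exceeded Cbs 54.1-fold in WT complete, 452-fold in WT glutamine-free, 10.2-fold in p53-null complete and 14.6-fold in p53-null glutamine-free libraries, as means of the ratio within a library. The SDs of that ratio were 22.5, 114, 1.93 and 1.31. Each comparison of this ratio between groups had p = 0.1 in the exact permutation test (two-sided, 3 against 3), the smallest such a design allows.

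**Figure D3:**
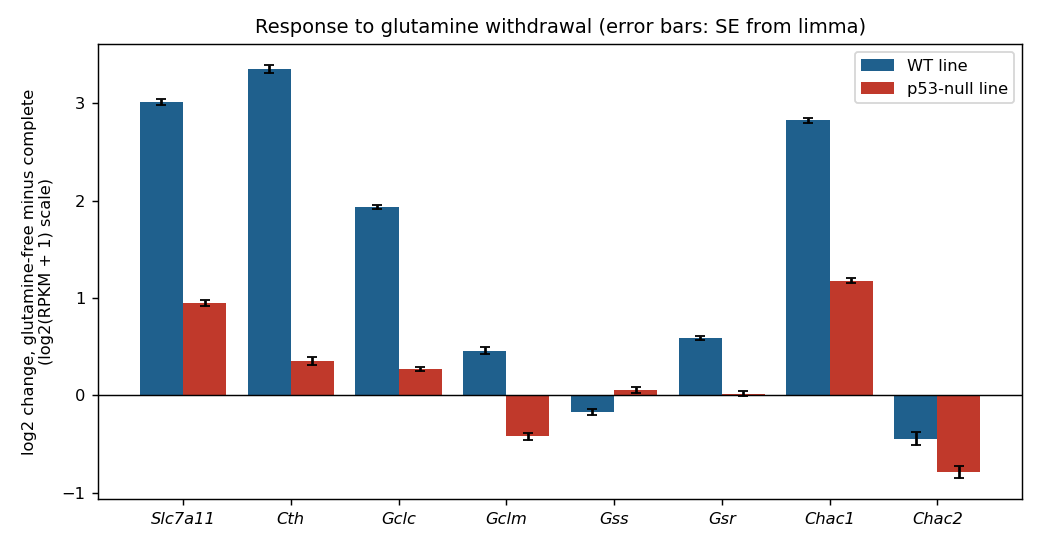
Log2 change from complete to glutamine-free medium in the WT line (blue) and the p53-null line (red) for the 8 tested genes, on the log2(RPKM + 1) scale with the SE from limma. Slc7a11, Cth, Gclc and Chac1 change by 1.93 to 3.36 in WT and by 0.27 to 1.18 in p53-null cells, and Gclm goes up in WT and down in p53-null cells.

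The subunits of glutamate-cysteine ligase, which catalyses the rate-limiting step of glutathione synthesis, moved apart. Gclc, the catalytic subunit, was 9.09, 9.12 and 8.70 RPKM in WT complete and 37.6, 36.5 and 37.2 RPKM in WT glutamine-free libraries, a log2 change of 1.93 ± 0.022 (adjusted p = 1.10e-16). In p53-null libraries it was 18.2, 18.2 and 17.6 RPKM with and 22.0, 21.6 and 22.0 RPKM without glutamine, a log2 change of 0.27 ± 0.022 (adjusted p = 9.64e-08). This p53-null change was 0.12 under quantile normalization and 0.16 under median centring, and passed under both. In complete medium Gclc was therefore 2.01-fold higher in the p53-null line, and in glutamine-free medium it was 1.69-fold higher in WT. These log2 differences, p53-null minus WT, were 0.93 ± 0.022 and -0.74 ± 0.022 (adjusted p = 1.17e-13 and 1.39e-12), and the responses differed by 1.67 ± 0.031 (adjusted p = 5.53e-14).

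Gclm, the modifier subunit, was 13.8, 14.7 and 14.3 RPKM in WT complete and 19.8, 20.2 and 19.8 RPKM in WT glutamine-free libraries, a log2 change of 0.46 ± 0.037 (adjusted p = 5.07e-08). Among p53-null libraries it went from 17.5, 16.4 and 17.5 to 11.7, 12.7 and 13.1 RPKM, a log2 change of -0.42 ± 0.037 (adjusted p = 1.87e-07). It thus rose in WT and fell in p53-null cells, with a difference of the responses of 0.88 ± 0.052 (adjusted p = 3.30e-09). Its highest group mean, 19.9 RPKM in WT glutamine-free cells, was 1.59-fold the lowest, 12.5 RPKM in p53-null glutamine-free cells. The ratio of Gclm to Gclc within a library was 1.59 ± 0.0612 in WT complete and 0.538 ± 0.0128 in WT glutamine-free cells, and 0.950 ± 0.0473 and 0.572 ± 0.0341 in p53-null cells. So, by the deposited RPKM, the modifier transcript was the more abundant in WT complete medium and the less abundant without glutamine in either line. That order rests on gene lengths that are not stated, while the change of the ratio between groups does not. The exact permutation test gave p = 0.1 for each medium comparison of this ratio, and p = 0.2 between the lines in glutamine-free medium, where the libraries overlapped.

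Gss, which adds glycine in the last step of synthesis, varied least among the 8 tested genes. It was 11.5, 11.5 and 11.1 RPKM in WT complete, 9.66, 10.1 and 10.3 in WT glutamine-free, 11.2, 11.9 and 10.9 in p53-null complete and 11.4, 11.9 and 12.1 RPKM in p53-null glutamine-free libraries. The WT glutamine-free libraries were the lowest and did not overlap the others. The log2 change was -0.17 ± 0.033 in WT (adjusted p = 2.95e-04) and 0.055 ± 0.033 in p53-null cells (adjusted p = 0.138), and the responses differed by -0.22 ± 0.046 (adjusted p = 5.77e-04). That difference was -0.13 under quantile normalization and -0.12 under median centring, and passed under both. The sign of the p53-null value changed with the scaling of libraries, to -0.069 (adjusted p = 0.0465) under quantile normalization and to -0.051 (adjusted p = 0.133) under median centring. With libraries rescaled to 1 sum it was 0.079 (adjusted p = 0.0273). Some of its reads could come from genes on the other strand.

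Gsr, which uses NADPH to restore oxidised glutathione, had the highest level of the 9 genes in WT complete medium. It was 26.4, 27.0 and 26.7 RPKM there and 41.4, 40.3 and 40.3 RPKM in WT glutamine-free libraries, 1.52-fold higher (log2 change 0.59 ± 0.025, adjusted p = 4.84e-11). In p53-null libraries it was 22.8, 21.9 and 22.1 RPKM with and 22.8, 21.7 and 23.2 RPKM without glutamine, and these overlapped (log2 change 0.018 ± 0.025, adjusted p = 0.516). With median centring the p53-null value was -0.088 (adjusted p = 0.00691) and with quantile normalization -0.15 (adjusted p = 2.24e-04). The responses differed by 0.57 ± 0.035 (adjusted p = 5.01e-09). The p53-null line was lower in both media, by a log2 difference of -0.25 ± 0.025 with glutamine (adjusted p = 4.53e-07, and -0.15 with libraries rescaled to 1 sum) and of -0.82 ± 0.025 without it (adjusted p = 1.72e-12).

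Chac1, the stress-induced enzyme that cleaves glutathione, was the gene of the 9 with the largest rise in p53-null cells. It was 6.01, 5.88 and 5.44 RPKM in WT complete and 46.3, 46.9 and 47.9 RPKM in WT glutamine-free libraries, an 8.14-fold rise (log2 change 2.83 ± 0.028, adjusted p = 3.51e-17, rank 31). In p53-null libraries it was 22.9, 23.3 and 22.9 RPKM with and 52.6, 53.5 and 54.1 RPKM without glutamine, a 2.32-fold rise (log2 change 1.18 ± 0.028, adjusted p = 8.79e-13, rank 74). The p53-null line thus began 3.99-fold above WT (log2 difference 1.83 ± 0.028, adjusted p = 1.77e-15). Without glutamine the lines came within 1.13-fold of each other. That last log2 difference, 0.18 ± 0.028 (adjusted p = 3.81e-05), did not pass with median centring, at 0.043 (adjusted p = 0.113), and was 0.33 with libraries rescaled to 1 sum. The responses differed by 1.65 ± 0.039 (adjusted p = 5.21e-13).

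Chac2, which catalyses the same cleavage and is known as the constitutive enzyme of the pair, went the other way. It was 3.16, 3.07 and 2.78 RPKM in WT complete and 1.83, 1.83 and 2.16 RPKM in WT glutamine-free libraries, a log2 change of -0.44 ± 0.063 (adjusted p = 1.85e-05), and of -0.20 under quantile normalization (adjusted p = 0.0057). Among p53-null libraries it went from 4.79, 4.84 and 4.76 to 2.21, 2.16 and 2.72 RPKM, a 2.03-fold fall in the mean. On the log2(RPKM + 1) scale, which understates ratios at these levels, the change was -0.79 ± 0.063 (adjusted p = 8.76e-08). It fell in both lines, and the responses differed by 0.34 ± 0.089 (adjusted p = 0.0030), or by 0.56 under quantile normalization. The p53-null line was higher by 0.54 ± 0.063 in complete medium (adjusted p = 2.91e-06) and by 0.19 ± 0.063 in glutamine-free medium (adjusted p = 0.0119). The latter was -0.0031 (adjusted p = 0.961) under quantile normalization and 0.056 (adjusted p = 0.388) under median centring, and 0.29 with libraries rescaled to 1 sum. Leaving out the third p53-null glutamine-free library gave 0.12 (adjusted p = 0.0589). Within a library Chac1 exceeded Chac2 by 1.93 ± 0.028-fold in WT complete, 24.3 ± 1.91-fold in WT glutamine-free, 4.80 ± 0.0126-fold in p53-null complete and 22.8 ± 2.60-fold in p53-null glutamine-free cells. The exact permutation test gave p = 0.1 for both medium comparisons of this ratio and p = 0.9 between the lines in glutamine-free medium.

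**Figure D4:**
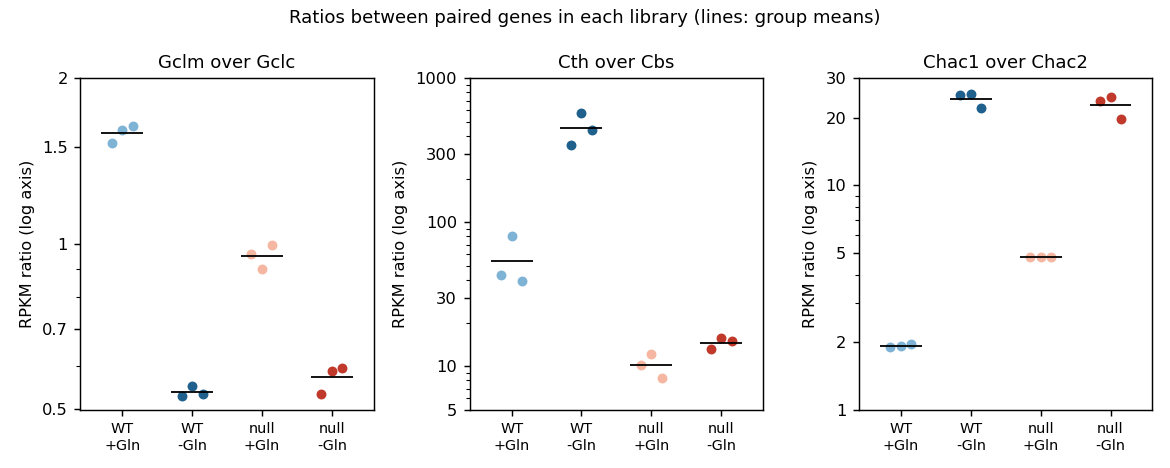
Ratio of RPKM within each library, on a log axis, for Gclm over Gclc, Cth over Cbs and Chac1 over Chac2 in the 4 groups, with lines at the group means. In glutamine-free medium the lines overlap for the first and the last ratio, while Cth over Cbs averages 452 in WT and 14.6 in p53-null cells.

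Set side by side between the lines, 4 of the 9 genes were called higher in p53-null cells in complete medium (Gclc, Gclm, Chac1 and Chac2), and 3 lower (Slc7a11, Cth and Gsr). Of all tested genes, 90.9% were called there, 48.4% higher and 42.5% lower, and 91.2% did not overlap between the lines. Chac1 exceeded 1 on the log2 scale, as 9.14% of tested genes did, and Cth was under -1, as were 10.9%. In glutamine-free medium 3 were called higher (Gss, Chac1 and Chac2) and 5 lower (Slc7a11, Cth, Gclc, Gclm and Gsr), with 91.4% of all tested genes called, 51.4% higher and 40.0% lower, and 91.4% without overlap. Slc7a11 and Cth were under -1 on the log2 scale there, as were 7.88% of tested genes. With median centring 1 was higher, Gss, and again 5 lower. The log2 difference of Gss there was 0.22 (adjusted p = 2.88e-05), against 0.078 under quantile normalization, 0.084 under median centring and 0.36 with libraries rescaled to 1 sum, and it passed under each. Gclc and Gclm thus stood on opposite sides of the WT level in the 2 media. Gss in complete medium was level, at -0.0046 ± 0.033 (adjusted p = 0.897), and 0.093 (adjusted p = 0.010) with libraries rescaled to 1 sum. Beside these comparisons stand the marker differences of the 2 lines given above, and their part in these values was not tested.

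RPKM is per length, so levels of the genes can also be ordered within a group. The gene lengths used for the deposited values are not stated, and the order of genes with close levels may depend on them. Overlap of libraries does not measure this. In WT complete medium the order of the means was Gsr, Gclm, Gss, Cth, Gclc, Chac1, Slc7a11, Chac2 and Cbs, from 26.7 to 0.195 RPKM. Without glutamine it became Cth, Chac1, Gsr, Slc7a11, Gclc, Gclm, Gss, Chac2 and Cbs, from 106.5 to 0.246 RPKM, with Slc7a11 and Gclc overlapping at 38.0 and 37.1 RPKM. Cth thus moved from the fourth to the first place and Slc7a11 from the seventh to the fourth. In p53-null cells Chac1 was first in both media, at 23.0 and 53.4 RPKM, and held 39.2% of the summed RPKM of the 9 genes without glutamine. Cth was seventh of the 9 in both p53-null groups. Without glutamine, the p53-null libraries of Gsr overlapped those of Gclc, and those of Gclm overlapped those of Gss. Other neighbours in the 4 orders did not overlap.

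**Figure D5:**
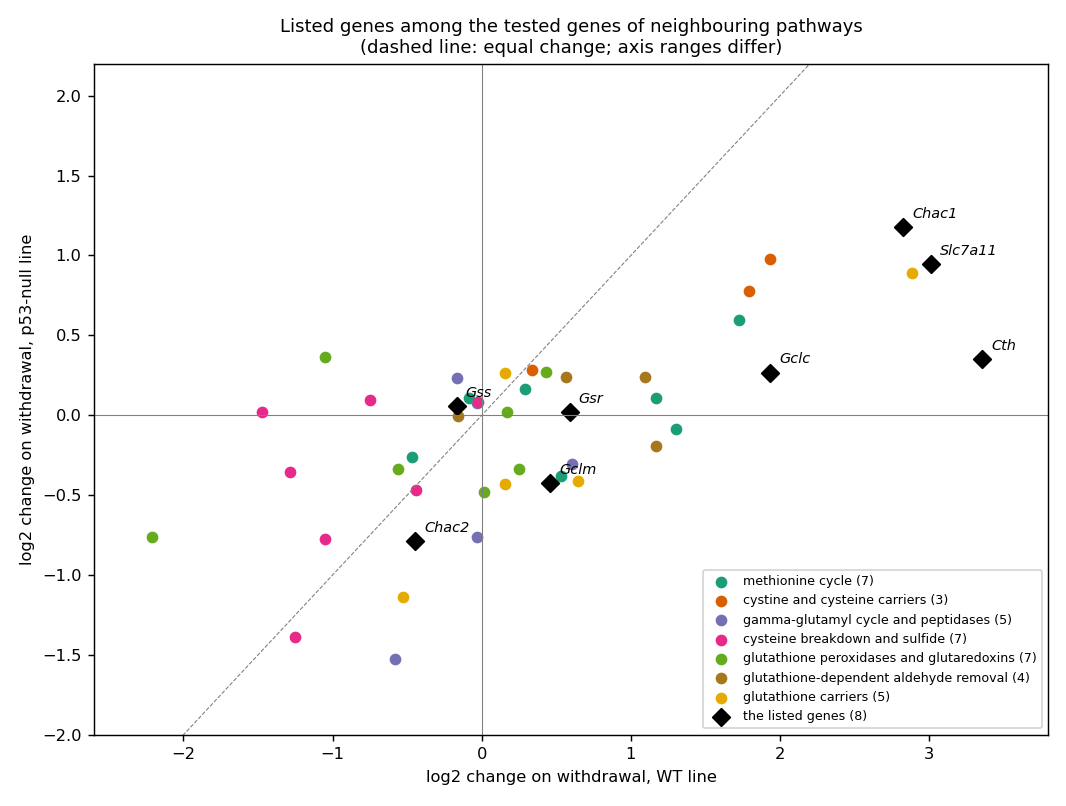
Log2 change on glutamine withdrawal in the WT line (horizontal) against the p53-null line (vertical) for the 8 tested genes (black diamonds) and 38 tested genes of neighbouring pathways (circles, coloured by list). The axes span different ranges, and the dashed line marks equal change. Cth lies at 3.36 and 0.35, and Abcc4, of the glutathione carriers, at 2.89 and 0.89.

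The genes around this pathway were read from lists of 58 genes, of which 38 were tested. In WT cells 19 rose and 15 fell on withdrawal, with a median log2 change of 0.09, beside 46.0% higher and 44.0% lower of all tested genes. In p53-null cells 16 rose and 18 fell, with a median of 0.01, beside 50.0% higher and 32.0% lower of all. The counts of each list below are to be read against these shares. Carriers of cystine and cysteine rose in 3 of 3 tested members in either line. Slc3a2, the heavy chain that pairs with Slc7a11, went from 49.2 ± 0.830 to 190.7 ± 1.90 RPKM in WT and from 58.4 ± 0.646 to 115.9 ± 0.929 RPKM in p53-null cells. Slc1a4, a carrier of neutral amino acids that include cysteine, went from 10.9 ± 0.458 to 40.1 ± 0.314 and from 26.4 ± 0.371 to 46.0 ± 0.919 RPKM. The lysosomal cystine exporter Ctns rose by 0.34 and 0.28 on the log2 scale (adjusted p = 1.87e-06 and 1.43e-05).

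The methionine cycle, which supplies homocysteine to transsulfuration, had 5 higher and 2 lower of 7 tested genes in WT, where 46.0% and 44.0% of all tested genes were. Methionine synthase (Mtr) went from 9.87 ± 0.0495 to 23.4 ± 0.215 RPKM and its reductase Mtrr from 6.69 ± 0.159 to 24.4 ± 0.391 RPKM. Mat2a, which makes S-adenosylmethionine, went from 33.3 ± 0.507 to 83.5 ± 1.26 RPKM in WT and from 80.6 ± 0.397 to 75.9 ± 0.884 RPKM in p53-null cells. In p53-null cells 4 of the 7 rose and 3 fell, and with median centring 1 rose and 3 fell. The falls include Ahcy, at 149.4, 157.7 and 134.3 RPKM with and 80.7, 137.6 and 128.8 RPKM without glutamine. These overlapped, and the fall (limma adjusted p = 0.0278) did not pass under quantile normalization (adjusted p = 0.0534). The median log2 change of the 7 was 0.53 in WT and 0.11 in p53-null cells, the latter -0.06 under quantile normalization.

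Enzymes that break down cysteine and sulfide went down in WT, 6 of 7 tested members with 0 up and a median log2 change of -1.05. In p53-null cells 4 fell and 1, the cysteamine dioxygenase gene Ado, rose (not with median centring or quantile normalization). Mpst, a sulfurtransferase that acts on the cysteine product 3-mercaptopyruvate, went from 16.6 ± 0.430 to 5.33 ± 0.262 RPKM in WT and was 5.92 ± 0.284 and 6.01 ± 0.229 RPKM in p53-null cells. Csad, of taurine synthesis, fell in both lines, from 10.3 ± 0.282 to 3.76 ± 0.339 and from 6.38 ± 0.211 to 1.82 ± 0.0597 RPKM. The mitochondrial sulfide oxidation genes Ethe1 and Sqrdl fell in WT by 1.28 and 1.05 on the log2 scale and in p53-null cells by 0.36 and 0.77 (adjusted p from 1.09e-11 to 1.44e-04). Cdo1, the main cysteine dioxygenase, was under the filter, at or below 0.238 RPKM on average.

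Glutathione peroxidases and glutaredoxins went both ways, 3 up and 3 down of 7 in WT (2 up and 4 down under quantile normalization) and 2 up and 4 down in p53-null cells (5 down under quantile normalization). Glrx, the cytosolic glutaredoxin, went from 52.2 ± 1.74 to 10.5 ± 0.572 RPKM in WT and from 4.89 ± 1.05 to 2.43 ± 0.237 RPKM in p53-null cells. The lipid hydroperoxide peroxidase Gpx4 was 89.4 ± 0.633 RPKM with and 90.6 ± 2.61 without glutamine in WT (adjusted p = 0.436, and under quantile normalization a fall of 0.093, adjusted p = 8.62e-04) and fell from 112.4 ± 2.83 to 80.1 ± 1.16 RPKM in p53-null cells. Gpx1 fell in both lines, from 106.8 ± 1.06 to 71.9 ± 3.20 and from 98.2 ± 1.29 to 77.5 ± 0.362 RPKM. Gpx8, of the endoplasmic reticulum, fell from 60.7 ± 0.439 to 28.8 ± 0.588 RPKM in WT and rose from 26.0 ± 1.5 to 33.8 ± 0.921 RPKM in p53-null cells.

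Of the 4 enzymes that use glutathione to clear aldehydes, 3 rose and 1 fell in WT. Adh5, which oxidises the adduct of formaldehyde and glutathione, went from 55.2 ± 0.617 to 119.1 ± 1.36 RPKM and Esd, which splits the product, from 68.5 ± 2.0 to 155.0 ± 2.65 RPKM. In p53-null cells 2 of the 4 rose and 1 fell (2 and 2 with median centring), and Adh5 rose by 0.24 and Esd fell by 0.19 on the log2 scale (adjusted p = 1.41e-08 and 2.14e-06). Of 5 tested glutathione carriers 4 rose and 1 fell in WT, beside 46.0% and 44.0% of all tested genes, and 2 rose and 3 fell in p53-null cells, beside 50.0% and 32.0%. The exporter gene Abcc4 went from 4.89 ± 0.200 to 42.6 ± 0.170 RPKM in WT and from 8.21 ± 0.330 to 16.1 ± 0.0925 RPKM in p53-null cells. Abcc5, another transporter of the same family, fell in both lines, by 0.53 on the log2 scale in WT and by 1.14 in p53-null cells (adjusted p = 4.50e-11 and 2.04e-13). Slc25a39, which carries glutathione into mitochondria, rose from 75.6 ± 0.588 to 118.8 ± 2.23 RPKM in WT and fell from 84.9 ± 1.08 to 63.5 ± 0.705 RPKM in p53-null cells.

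The gamma-glutamyl cycle and its peptidases had 5 of 11 genes over the filter, of which 1 rose and 2 fell in WT and 2 rose and 3 fell in p53-null cells. The WT falls were Anpep and Ggct. Anpep and Oplah were under 1 RPKM in each WT library and passed the filter through p53-null libraries alone. Ggct overlapped between the media in WT, and its log2 change there was 0.066 (adjusted p = 0.304) under quantile normalization. With quantile normalization 2 rose in WT, and with median centring none rose in p53-null cells. The cell-surface gamma-glutamyl transferase Ggt1, which opens extracellular glutathione, averaged at most 0.0259 RPKM. Anpep, a cell-surface aminopeptidase, fell from 0.551 ± 0.0139 to 0.0346 ± 0.0135 RPKM in WT and from 7.47 ± 0.164 to 1.94 ± 0.0814 RPKM in p53-null cells. Oplah, which returns 5-oxoproline to glutamate, was 0.306 ± 0.0596 and 0.278 ± 0.0572 RPKM in WT cells and fell from 4.90 ± 0.0757 to 2.48 ± 0.0720 RPKM in p53-null cells. The cytosolic dipeptidase Cndp2 rose from 6.03 ± 0.200 to 9.71 ± 0.176 RPKM in WT and fell from 32.9 ± 0.830 to 26.4 ± 0.443 RPKM in p53-null cells.

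The transcription factors known to act on these genes moved in the same libraries. Atf4 rose from 119.2 ± 1.46 to 385.6 ± 6.05 RPKM in WT and from 206.5 ± 3.03 to 270.3 ± 4.85 RPKM in p53-null cells. Ddit3, whose product CHOP is made downstream of ATF4, rose from 23.8 ± 0.656 to 169.3 ± 3.29 and from 42.1 ± 0.840 to 90.2 ± 0.912 RPKM. Atf3 and the pseudokinase gene Trib3, both ATF4 targets, rose in WT by 4.14 and 4.29 on the log2 scale and in p53-null cells by 1.81 and 1.06 (adjusted p from 8.27e-19 to 1.03e-09). In complete medium Atf4, Ddit3, Atf3, Trib3 and Chac1 were each higher in the p53-null line, while Cth and Slc7a11 were lower there. Of all tested genes 48.4% were called higher and 42.5% lower in that comparison. Nfe2l2, which encodes NRF2, rose from 19.1 ± 0.190 to 31.5 ± 1.26 RPKM in WT and from 17.8 ± 0.385 to 21.1 ± 0.543 RPKM in p53-null cells. Keap1, which directs NRF2 to degradation, fell in both, from 13.2 ± 0.181 to 6.62 ± 0.221 and from 9.78 ± 0.0850 to 6.88 ± 0.190 RPKM. Bach1, a repressor at antioxidant response elements, fell from 7.05 ± 0.0548 to 4.89 ± 0.239 RPKM in WT and was 4.79 ± 0.169 and 5.54 ± 0.0857 RPKM in p53-null cells (a rise, adjusted p = 2.36e-04, and 0.0685 with median centring). Transcript levels do not show the activity of these factors.

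For the 5 tested genes whose highest group mean was at least 2 times the lowest, the genes with the nearest pattern were found by the root mean square distance of centred log2(RPKM + 1) values over the 12 libraries. The libraries fall into 4 groups, so these likenesses rest on 4 group levels and are given as a description. Gclc lay nearest to Ppip5k2, Pum3 and Mthfd2, at distances of 0.0243 to 0.0525 (Pearson r 0.998 to 0.999). Mthfd2, of mitochondrial folate metabolism, went from 44.5 ± 0.870 to 187.5 ± 0.831 RPKM in WT and from 86.9 ± 0.925 to 107.9 ± 2.03 RPKM in p53-null cells. Chac1 lay nearest to Fam171b, Wfs1 and Trmt61a (0.105 to 0.180), and Chac2 to Lyst, Chrd and Stub1 (0.0872 to 0.0986). Of these, Chrd reached 1 RPKM only in p53-null complete libraries (1.47 ± 0.0564 RPKM), the group where Chac2 was also highest. Slc7a11 lay nearest to Cd74, the glycine transporter gene Slc6a9 and Myc (0.226 to 0.308). In the p53-null groups Cd74 was low, at 0.644 ± 0.0432 RPKM with and 1.34 ± 0.156 RPKM without glutamine. Cth had the most distant neighbours, Scara5, Kctd15 and Tbc1d9 (0.458 to 0.587), whose group means in the p53-null line stayed under 0.310 RPKM. Scara5, for example, went from 3.28 ± 0.0924 to 20.9 ± 0.492 RPKM in WT cells and averaged 0.00686 ± 0.00212 and 0.00273 ± 0.00237 RPKM in the p53-null groups, while Cth was detected there at 3.42 ± 0.0419 and 4.64 ± 0.439 RPKM.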

How the data were processed

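Libraries were made from 0.5 ug of total RNA with a TruSeq RNA kit, per the labels' protocols, and the submitters' processing notes name HISAT2 2.0.4, CASAVA 1.8, Partek and the build mm10. The authors deposited 1 RPKM value per gene and sample. Their annotation and counting rules are not stated in those notes, so the gene lengths behind levels and ratios of different genes are not known. RPKM keeps no read count, so no counting interval is given, and a few very abundant genes lower all others.

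The 11461 genes that reached 1 RPKM in 3 or more of the 12 libraries were analysed as log2(RPKM + 1) with limma 3.58.1 (R 4.3.3), as 4 group means with a mean-variance trend. Benjamini-Hochberg adjustment covered all tested genes of a comparison, and genes were called under 0.05. The fit was tried on simulated data in which few genes changed, unlike here, so that trial does not bear on the scaling of libraries. Ratios had exact permutation tests. Of 111 listed symbols, 103 were in the table.

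The genes and lists were chosen with earlier results of these data known. Named are all 9 genes, at most 4 called genes per list with the largest change, 7 regulators, Trp53 and the 3 nearest patterns; Cdo1, Ggt1, Ado and the cell type markers were named after their values were seen. Alternatives changed the pseudocount, filter, scaling, trend, samples in the fit, replicate block or left out a library.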

Additional observations from a re-analysis of the deposited data

Results flagged for a closer look

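The response to glutamine withdrawal differed between the lines, by the interaction term of limma, for each of the 8 tested genes. The difference, WT minus p53-null on the log2(RPKM + 1) scale, was 3.01 for Cth, 2.06 for Slc7a11, 1.67 for Gclc, 1.65 for Chac1, 0.88 for Gclm, 0.57 for Gsr, 0.34 for Chac2 and -0.22 for Gss. Chac2 fell in both lines, and its positive value marks a smaller fall in WT. The adjusted p ranged from 5.53e-14 (Gclc) to 0.0030 (Chac2). Since 84.9% of all tested genes had such a difference, its size says more than its call. Groups of 3 libraries are too small for a test of single outlying libraries.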

How the results depend on the processing

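The counts of the 9 genes called stayed within 1.5 times the main count under each alternative run. With so few genes, and most of all tested genes called, that limit could hardly be passed, and it leaves out direction. On withdrawal in p53-null cells, 4 higher and 2 lower became 4 and 4 under quantile normalization. Between the lines in glutamine-free medium, 3 higher and 5 lower became 1 and 5 with median centring. With 1 library left out the counts were 8 to 8 for withdrawal in WT and 6 to 7 in p53-null cells. Between the lines they were 7 to 7 in complete and 7 to 8 in glutamine-free medium, and 8 to 8 for the difference of the responses. Of the refitted changes of single genes 851 kept their direction and side of the threshold, and 11 changed sign. In all 6 newly passed and 4 no longer passed, of which 4 and 1 also changed sign, and the cause was not tested. For Gss the p53-null withdrawal value was -0.069 under quantile normalization, 0.079 with rescaling to 1 sum and 0.085 without the second p53-null complete library, each of which passed, and -0.051 under median centring, which did not. Between the lines in complete medium Gss was 0.093 with rescaling, and -0.035 to 0.021 with 1 library left out. For Gsr the p53-null withdrawal value was -0.15 under quantile normalization, -0.088 under median centring and -0.0026 to 0.046 with 1 library left out. Between the lines in glutamine-free medium Chac2 was -0.0031 under quantile normalization. It no longer passed at 0.056 with median centring or 0.12 without the third p53-null glutamine-free library, nor did Chac1 at 0.043 with median centring. With a pseudocount of 0.1 the log2 difference of Gclm over Gclc on withdrawal in WT was -1.56. That of Cth over Cbs between the lines was -2.06 in complete and -4.78 in glutamine-free medium, and that of Chac1 over Chac2 was 3.61 and 2.21 on withdrawal in WT and p53-null cells and 1.32 between the lines in complete medium. Without the filter Cbs was tested and 8 of the 9 were called between the lines in complete medium.

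With the replicate number as a block, the counts of called genes were 8, 6, 7, 8 and 8, as without it. The numbers did not pair the libraries: deviations from group means correlated at -0.106 to 0.088 over 18 same-numbered pairs, and 3 of 12 libraries correlated best with their own number. Read totals were not given, and 3 libraries a group limit the precision of every value.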
